A study of Mus musculus with 20 samples.

Results

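Hematopoietic stem cells (HSCs) of mice that had received 10 cycles of 5-fluorouracil (10x) were compared with HSCs of mice that had received 4 cycles (4x). Both groups had been treated, so the comparison asks what differed in DNA methylation between a long and a shorter series of forced replications, and leaves out what both share with each other against untreated mice. The samples were chosen by their labels, and 10 of the 20 samples of the series belong to the comparison: 4 of 4x (samples 05, 06, 19 and 20) and 6 of 10x (samples 11, 12, 31, 32, 33 and 34). All came from C57BL/6 mice (C57BL/6 J in the methods). The labels give the tissue as blood and the cell type as HSC, and by the methods of the study the cells were sorted from the bone marrow of females a month after the last cycle; the mice were young adults when treatment began and near middle age by the end of the experiment. The untreated 0x samples (n = 4) and the 2x samples (n = 6) are used as reference levels. Methylation was measured by reduced representation bisulfite sequencing (RRBS), and each value is the percent methylation of a 100 bp bin in 1 sample. The series holds 1201951 bins, 1164897 of them on the 19 autosomes. Missing values had been filled from the group before deposit, so the comparison uses the 217601 autosomal bins (18.7% of the autosomal bins) in which both groups vary and no value other than 0 or 100 recurs exactly within a group. In 640530 autosomal bins both groups hold a single value throughout, and these are left out.

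5-fluorouracil blocks thymidylate synthase and kills dividing blood cells, and HSCs, which are mostly quiescent, then divide to rebuild the marrow. Methyl groups on the cytosine of a CpG are copied to the new strand at each division by the maintenance methyltransferase Dnmt1, and are added by Dnmt3a and Dnmt3b and removed through the Tet enzymes. Most CpGs of a mammalian genome are methylated, while CpG-rich promoters are mostly free of methylation, and RRBS, which selects fragments around CCGG sites, samples such regions heavily.

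One library of the 10x group stood apart. Exact recurrence of a value within a group marks a bin filled in more than 1 sample, and among the 135839 autosomal bins in which this occurred in 10x, sample 32 held a recurring value in 96.2%, against 27.7 to 49.4% for the other 5 samples. In the bins used here its value lay strictly within the range of the other 5 samples in 79.3% of bins and outside it in 6.28%, against 22.5 to 24.3% outside for each of the others. Its median distance from the mean of the other 10x samples was 1.34 percentage points, compared with 4.21 to 4.62 points for the rest. A fill in only 1 sample leaves no recurring value and could not be removed, so sample 32 cannot be counted on as a further independent animal, and results are given with and without it. In 4x the share of recurring values was 82.3% for sample 19, 75.1% for sample 20, 34.5% for sample 05 and 8.23% for sample 06. The distance from the other samples was similar for each (4.69 to 4.94 points), but this is a median over bins. Values of samples 19 and 20 filled in single bins, called bins included, could not be removed either. The share of bins at exactly 0 or 100 ran from 17.2 to 58.7% in 4x and from 18.1 to 52.3% in 10x, with sample 06 and sample 32 the lowest.

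The bins on which the comparison turned are shown first, with coordinates of mm10 on the plus strand and each CpG of the genome sequence in capitals. Which CpGs of a bin were read is unknown. Rbm20, Nucb2, Galntl6 and Clstn1 hold 4 of the 5 bins that passed the test with and without sample 32, the adjacent Dnah8 bins are the one case of neighbouring bins that both passed, and the bin near Twist2 is shown for its level across the 4 groups.
Rbm20, intron, chr19:53691100-53691199: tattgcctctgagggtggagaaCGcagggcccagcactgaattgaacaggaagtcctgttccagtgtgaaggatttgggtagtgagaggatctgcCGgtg
Nucb2, intron, chr7:116515100-116515199: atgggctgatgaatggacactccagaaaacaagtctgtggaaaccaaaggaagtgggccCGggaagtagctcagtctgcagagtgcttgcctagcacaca
Galntl6, intron, chr8:57807400-57807499: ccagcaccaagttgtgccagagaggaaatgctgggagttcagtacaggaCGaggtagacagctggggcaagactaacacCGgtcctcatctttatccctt
Clstn1, intron, chr4:149601400-149601499: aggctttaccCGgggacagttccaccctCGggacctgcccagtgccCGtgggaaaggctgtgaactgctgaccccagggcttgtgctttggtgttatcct
Dnah8, intron, chr17:30658200-30658399: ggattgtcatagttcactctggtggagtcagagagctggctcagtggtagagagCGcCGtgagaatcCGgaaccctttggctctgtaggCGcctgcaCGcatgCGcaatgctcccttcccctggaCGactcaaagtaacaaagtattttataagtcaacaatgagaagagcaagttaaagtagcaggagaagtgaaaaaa
Twist2, upstream, chr1:91799800-91799899: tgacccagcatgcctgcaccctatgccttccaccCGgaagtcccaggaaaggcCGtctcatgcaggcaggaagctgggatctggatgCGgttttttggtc
The bins of Nucb2, Rbm20 and Galntl6 hold 1, 2 and 2 CpGs, and the Dnah8 stretch holds 7. The motif CCGG, which reads the same on both strands, is present in 24 of the 28 bins that passed and in 92.7% of all 217601 bins.

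Mean methylation over the 217601 bins was 56.6% in sample 05, 56.7% in sample 06, 56.6% in sample 19 and 56.8% in sample 20 of 4x. It was 57.5% in sample 11, 56.9% in sample 12, 57.5% in sample 31, 57.1% in sample 32, 57.2% in sample 33 and 57.0% in sample 34 of 10x. Every 10x sample was above every 4x sample. The group means were 56.6% ± 0.120 (SD, n = 4) and 57.2% ± 0.264 (SD, n = 6), a difference of 0.553 points (SE 0.123, two-sided exact permutation test p = 0.00952, where 0.00476 is the smallest p that 210 labelings can give). Without sample 32 the difference was 0.574 points (two-sided exact permutation p = 0.0159). The mean was higher in 10x on each of the 19 autosomes, by 0.409 to 0.826 points, and on 11 of them the samples of the groups did not overlap. The autosomes were measured in the same samples, so they do not count as separate observations. With the bins limited to those holding at most 1 value of 0 or 100 in a group, the difference was 0.349 points (exact permutation p = 0.295).

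**Figure D1:**
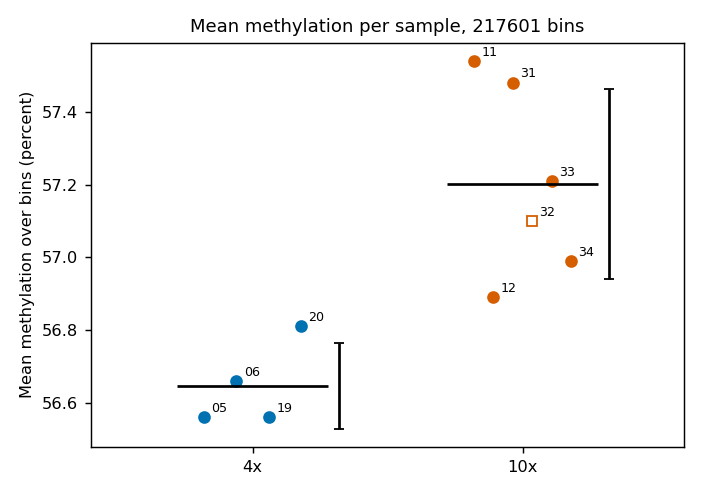
Mean methylation over the 217601 bins (y axis, percent, starting above 0) for each 4x and 10x sample (points, numbered), with the group mean (line) and SD (bar). All 10x samples lie above the 4x samples, and the open square is 10x sample 32, at 57.1%.

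The difference was not spread evenly over the genome. Bins within 1 kb of a transcription start site (TSS), counted as promoters, had 15.6% ± 0.188 (SD, n = 4) methylation after 4 cycles and 15.5% ± 0.101 (SD, n = 6) after 10 cycles, a difference of -0.07 points (exact permutation p = 0.529, adjusted over the 8 classes 0.529). Intergenic bins rose by 0.982 points, from 78.0 to 79.0% (exact permutation p = 0.00476, adjusted 0.0190), bins of non-coding genes by 0.882 points, introns by 0.791 points, bins around transcription termination sites (TTS) by 0.746 points and exons by 0.562 points. These 5 of the 8 classes passed at an adjusted p under 0.05, but with the label series (samples numbered up to 12, and above) as a block the TTS bins did not (0.716 points, adjusted exact permutation p = 0.0533). The 3′ UTR (0.541 points, exact permutation p = 0.0429, adjusted 0.0571) and the 5′ UTR (0.663 points, p = 0.191) did not. Without sample 32 the differences of these 5 classes were 0.572 to 1.02 points and each adjusted p of the exact test was 0.0529, so that no class passed. The difference between the intergenic and the promoter change itself was 1.05 points (exact permutation p = 0.00476), and 1.09 points without sample 32 (exact permutation p = 0.00794, the smallest that 4 against 5 samples can give). For reference, intergenic bins were at 77.8% in 0x and 78.8% in 2x, so that here too 2x lay above 4x.

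A like contrast was seen when the same bins were split by their level in the 0x samples. Those samples are separate untreated mice and take no part in the comparison, although their values include filled ones. The splits by class, level, distance and CpGs divide the same set of bins, so they do not count as separate observations. Bins over 80% in 0x (104663) were at 91.7% in 4x and 92.9% in 10x, higher by 1.13 points (exact permutation p = 0.00476, adjusted over 3 levels 0.00714). Bins under 20% in 0x (75618) differed the other way, at 5.68% in 4x and 5.397% in 10x, or by -0.28 points (exact permutation p = 0.00476, adjusted 0.00714). In both sets the samples of the groups did not overlap, also without sample 32 (1.17 and -0.29 points, adjusted exact permutation p = 0.0119 for each). In 2x, filled values included, the bins over 80% were at 93.0% and those under 20% at 5.18%, nearer to 10x than to 4x. The decrease depended on the bin set. It was -0.10 points in all deposited bins that vary (exact permutation p = 0.252), -0.12 in bins usable in all 4 groups (adjusted p = 0.236) and -0.11 in bins with at most 1 value of 0 or 100 in a group (adjusted p = 0.562), and passed in none of these. Bins over 80% passed in the first and second of these sets but not in the third (0.883 points, adjusted exact permutation p = 0.229). Bins of 20 to 80% in 0x (37320) differed by 0.620 points and the samples overlapped (exact permutation p = 0.181).

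With distance from the nearest TSS the difference was -0.07 points up to 1 kb, 0.592 at 1 to 5 kb, 0.866 at 5 to 20 kb, 0.961 at 20 to 50 kb and 0.996 points beyond 50 kb. The last 4 passed (adjusted exact permutation p from 0.0119 to 0.0238), and without sample 32 the bins at 1 to 5 kb no longer did (adjusted exact permutation p = 0.0595). By the number of CpGs in the bin, the difference was 1.16 points with 1 CpG, 0.792 with 2 to 3, 0.369 with 4 to 6 and -0.06 points with 7 or more. The bins with 7 or more CpGs, which were at 12.8% in both groups, were the only ones of the 4 sets that did not pass (exact permutation p = 0.362).

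**Figure D2:**
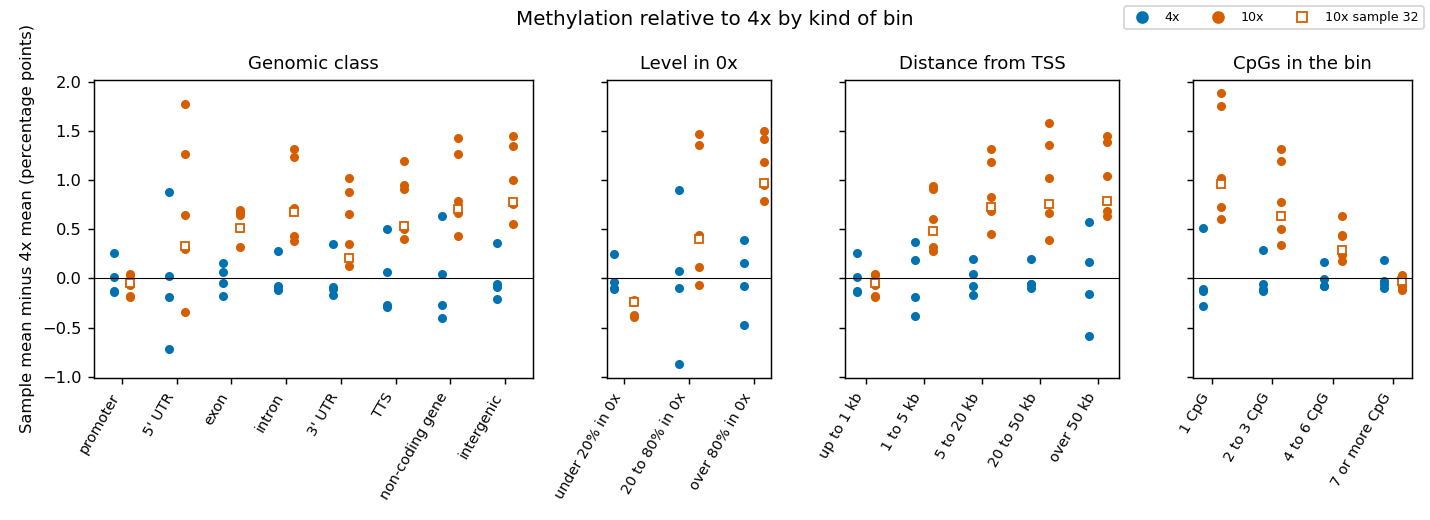
Mean methylation of each 4x (blue) and 10x (orange) sample minus the 4x mean (y axis, percentage points) for bins grouped by genomic class, level in 0x, distance from the TSS and CpGs in the bin; the open square is 10x sample 32. The 10x samples lie above the 4x samples in intergenic bins (0.982 points) and around 0 in promoters (-0.07 points).

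Single bins were tested with limma over all 217601 bins, and a bin was called at an adjusted p under 0.05 and a difference of at least 10 points. In all, 28 bins on 15 autosomes were called. Methylation was higher in 10x in 13 (0.00597% of the bins tested) and lower in 15 (0.00689%). The samples of the groups did not overlap in any of the 28, compared with 0.75% of all bins (1633) without overlap. The call selects for such separation, so this adds no support. Before adjustment, at p under 0.05 and at least 10 points, 4155 bins were higher in 10x (1.91%) and 2753 lower (1.27%). At p under 0.05 and any size, 9561 bins (4.39%) passed, no more than such a limit passes when nothing differs. The calls were sensitive to the model: none was made with a variance trend (3664 bins higher and 2181 lower at an unadjusted p under 0.05), on the log2 ratio of methylated to unmethylated percent (4027 and 2843) or with unequal variances and no moderation (1757 and 1899). In each of the 28 bins sample 32 lay within the range of the other 10x samples, and without it 5 of the 28 remained called, while the other 23 had adjusted p-values of 0.0541 to 0.210 in limma and nearly the same differences.

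The strongest bin was in an intron of Rbm20, which encodes a splicing factor of the titin transcript in muscle. In 4x its methylation was 50, 57.9, 65.2 and 58.4% (samples 05, 06, 19 and 20). In 10x it was 0 in samples 11, 12, 33 and 34, 2.70% in sample 31 and 1.24% in sample 32. The difference was -57.22 points (SE 2.57, limma adjusted p = 5.26e-04), and -57.34 points without sample 32 (adjusted p = 0.00566). The 1 other bin of the set within 500 bp went from 64.2 to 57.3%. The 0x samples were scattered at this bin, at 37.0, 74.5, 0 and 62.3%.

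The other 4 bins called with and without sample 32 were higher in 10x. In an intron of Nucb2, a calcium-binding protein and precursor of the peptide nesfatin-1, the 4x samples were at 0, 27.3, 0 and 10.0%. The 10x samples were at 97.1, 100, 87.8, 100, 100 and 100% (in the order 11, 12, 31, 32, 33, 34), a difference of 88.2 points (SE 5.37, limma adjusted p = 0.00273), the largest of the 28. No other bin of the set lay within 500 bp of it, and the bin holds a single CpG.

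In an intron of Galntl6, of the family of enzymes that start mucin-type O-glycosylation, the 4x samples were at 56.8, 66.7, 58.1 and 50% and the 10x samples at 96.3 to 100%, 41.2 points higher (SE 2.82, limma adjusted p = 0.00465). In an intron of Clstn1, which encodes the cargo adaptor calsyntenin 1, 4x was at 73.7, 72.7, 71.6 and 66.7% and 10x at 96.97 to 100%, 28.2 points higher (SE 1.66, limma adjusted p = 0.00273). In the Vmn2r16 bin, chr5:109331300-109331399, 969 bp downstream of the TSS of this pheromone receptor gene, 4x was at 74.1, 76.2, 76.8 and 79.8% and 10x at 96.7 to 100%, 22.6 points higher (SE 1.49, limma adjusted p = 0.00409). All 3 bins were almost fully methylated in each 10x sample and partly methylated in each 4x sample.

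Another 9 bins higher in 10x were called with the 6 samples but not without sample 32, of which 7 had a 10x mean over 90% and 5 a 4x mean between 20 and 80%. Of all 28 called bins, 18 had a 10x mean over 90% or under 10%, as did 71.3% of all bins tested. In an intron of Pld3, an endolysosomal exonuclease, the 4x samples were at 17.4, 19.5, 15.8 and 17.8% and the 10x samples at 73.1 to 100%, a difference of 66.6 points (limma adjusted p = 0.0222). The 1 other bin of the set near it was higher in 10x as well, at 55.6% in 4x and 95.1% in 10x. An intron of Ildr1, a tight junction protein, differed by 44.9 points, with 10x samples at 80.7 to 100% and 4x samples at 42.9 to 57.1%. An intron of Slc38a1, a glutamine transporter, differed by 13.6 points and a bin near Rxrg, a retinoid X receptor, by 12.8 points, the smallest of the calls. The remaining bins higher in 10x lay between genes, near 1700042G15Rik (57.9 points), Gm32897 (46.6), Mdm1 (37.4), Twist2 (34.6) and Gm24626 (34.3).

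Of the 15 bins lower in 10x, 6 were in introns, 3 between genes, 2 in promoters, 2 in exons and 2 around a TTS, and 7 had a 10x mean under 10%. The largest decreases were in introns of Tex2 (-81.64 points, 4x at 70.0 to 100% and 10x at 0 to 28.1%) and Hrh2, the histamine H2 receptor (-78.66 points, 4x at 71.7 to 100% and 10x at 0 to 27.8%), and in the promoter of Ap1m1, a subunit of a clathrin adaptor (-73.87 points). The Ap1m1 bin consists of repeat sequence over its whole length by the repeat masking of the genome. An intron of Galnt16, another O-glycosylation enzyme, differed by -39.85 points, with 4x at 38.5 to 52.9% and 10x at 0 to 15.4%.

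The adjacent pair in an intron of Dnah8, a heavy chain of axonemal dynein, was called in both bins. In the first bin the 4x samples were at 52.7, 58.2, 42.4 and 50.2% and the 10x samples at 21.2, 23.8, 15.5, 20.6, 20.7 and 20.8%, a difference of -30.45 points (SE 2.92, limma adjusted p = 0.0234). In the second bin 4x was at 53, 63.1, 63.6 and 50% and 10x at 16.9 to 23.7%, a difference of -37.45 points (SE 3.11, adjusted p = 0.0181). Both 10x groups were tight, with SDs of 2.70 and 2.98 points. Neighbouring bins can be read by the same fragments, so the pair does not count as 2 separate observations, and without sample 32 the adjusted p-values were 0.121 and 0.105.

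In the promoter of Pard6b, a cell polarity protein, 46 bp from the TSS, 4x samples were at 26.1 to 35.9%. The 10x samples were at 0 to 11.9%, a difference of -29.81 points (limma adjusted p = 0.0322), while the 4 other bins of the set within 500 bp were near 0 in both groups (3.47 and 1.18%). In an exon of Ppard, a nuclear receptor of fatty acid metabolism, 4x was at 27.8 to 37.3% and 10x at 0 to 10.7%, a difference of -28.97 points. In an exon of the protease gene Prss36, 4x was at 82.2 to 100% and 10x at 50 to 58.3%, a difference of -35.95 points. The rest lay around the TTS of Rbx1, the RING subunit of cullin ubiquitin ligases (-31.44 points), and of the RNA decapping enzyme Dxo (-24.48), and near Vmn2r22 (-31.59), Gm40565 (-23.44) and Slamf6, a receptor of lymphoid cells (-18.41). Just outside the limit were bins near Gm40043 and in introns of Iqck, Pex14 and Dntt, all without overlap between the groups.

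**Figure D3:**
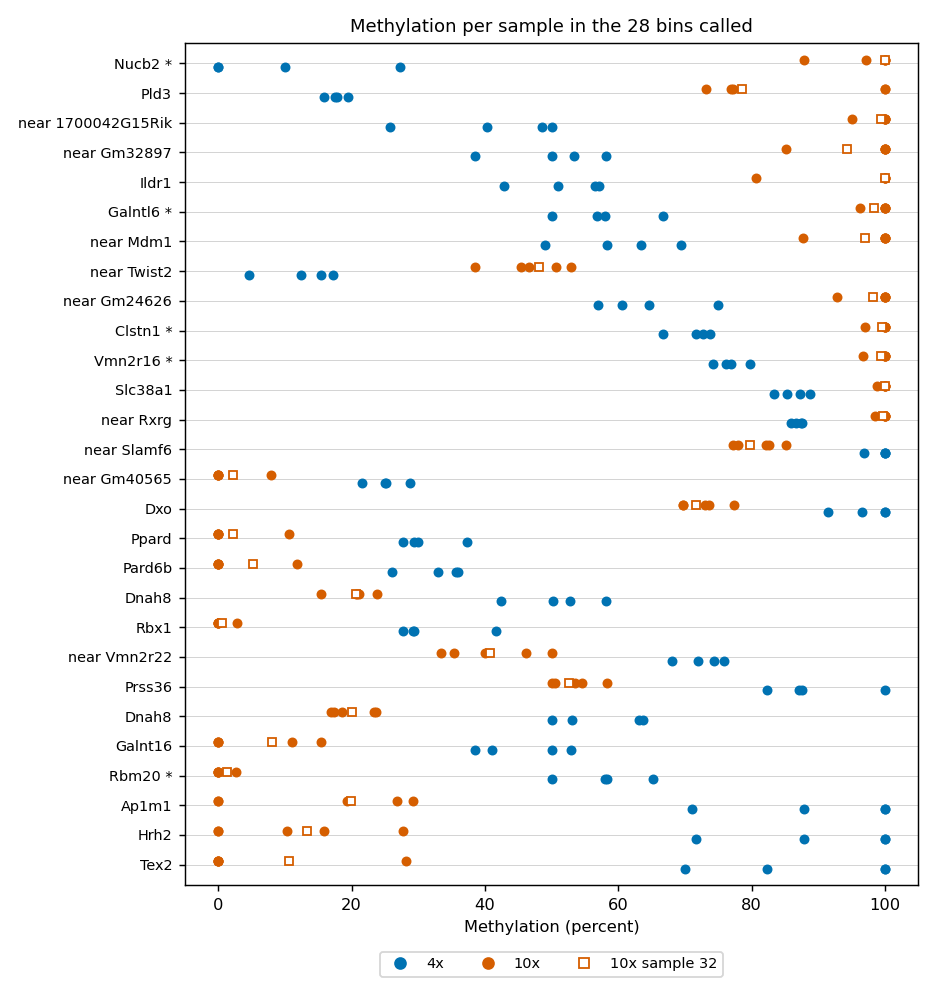
Methylation (x axis, percent) in each sample of 4x (blue) and 10x (orange) for the 28 bins called, ordered by the difference; the open square is 10x sample 32 and a star marks the 5 bins also called without it. The groups do not overlap in any bin, and in 11 of the 13 bins higher in 10x the 10x mean is over 90%.

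Another bin of the set lay within 500 bp of 15 of the 28 called bins (12 of the 15 lower and 3 of the 13 higher in 10x), while 66.2% of all bins used have such a neighbour. For 11 of the 15 with a neighbour, the mean difference of the neighbours had the same sign, and in 6 it was at least 10 points. Both counts include the 2 Dnah8 bins, which are neighbours of each other. Each has 2 neighbours, and the 1 with the same sign is the other called bin. The share with the same sign was not taken for all bins. By class, 12 were in introns, 9 between genes, 3 in promoters, 2 in exons and 2 around a TTS, while promoters make up 32.2% of the bins tested. The called bins held a median of 2 CpGs, and the whole set a median of 3. Among the bins past the unadjusted limit, promoters had nearly equal shares in each direction (0.784% of promoter bins higher and 0.887% lower), while intergenic bins had 2.59% higher and 1.35% lower and introns 2.49% and 1.54%. Bins at 20 to 80% in 0x had the largest shares, 4.56% higher and 3.62% lower. This limit asks for at least 10 points, and the spread between samples differed by class. The median SD (4x and 10x) was 16.88 and 15.95 points in bins at 20 to 80% in 0x. It was 3.15 and 3.04 points in bins under 20% and 3.20 and 3.07 points in promoters. The shares of different classes are therefore not like for like.

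The levels in 0x and 2x place few of the called bins on a line from untreated to 10x. The 0x group varied without a recurring value in 17 of the 28 bins. In 8 of these its mean was nearer to 10x and in 9 nearer to 4x. The 2x group met this condition in only 8 bins, and in 7 others all 2x samples are listed at 100%. The bin near Twist2, a transcription factor of mesenchyme, at -1611 bp from its TSS, was at 95.7, 100, 100 and 100% in 0x. It was at 15.4, 4.55, 17.2 and 12.4% in 4x and at 38.5 to 52.9% in 10x, while the 2x samples spread from 0 to 100%. Its level in 4x was thus the lowest and that in 10x lay between 4x and 0x. The difference of 34.6 points (limma adjusted p = 0.0234) had an adjusted p of 0.121 without sample 32, and the 2 neighbouring bins had a mean of 30.9% in 4x and 16.3% in 10x. At Rbm20 the 2x samples were at 0 to 54.5% with 3 of the 6 at 0, and at the Dnah8 bins 0x and 2x both spread widely.

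**Figure D4:**
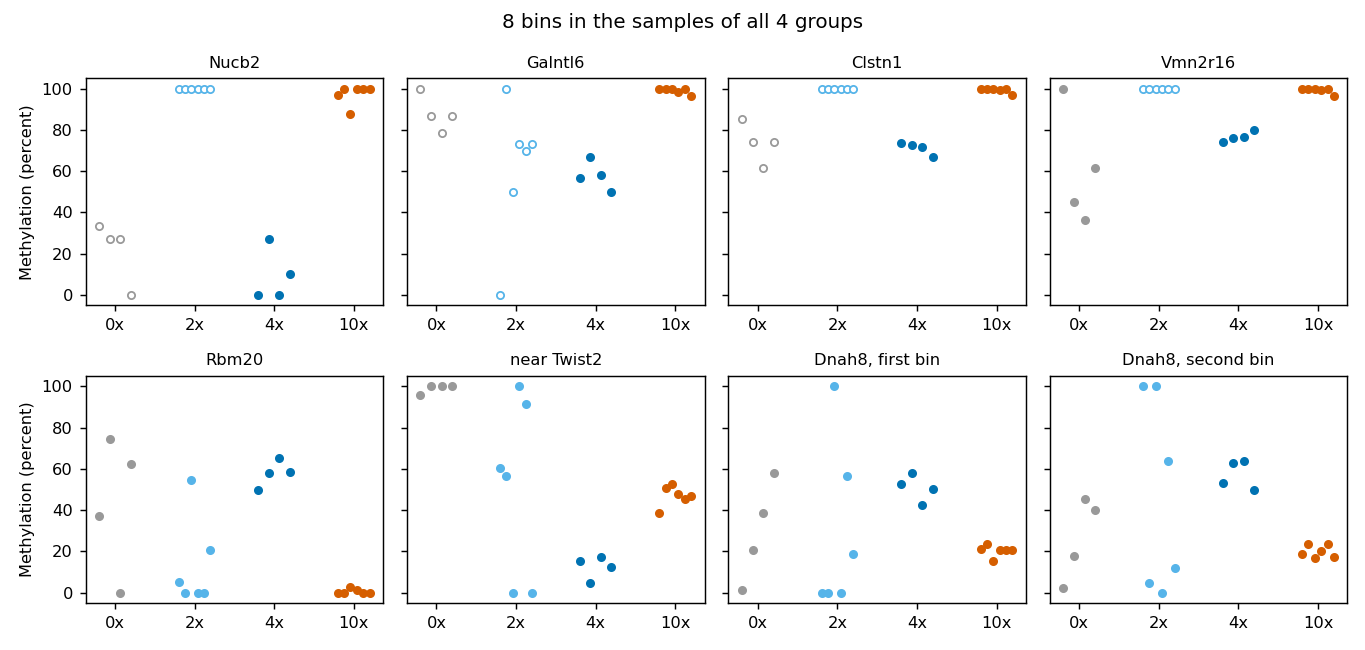
Methylation (y axis, percent) in the samples of 0x, 2x, 4x and 10x at the 5 bins called with and without 10x sample 32, the bin near Twist2 and both Dnah8 bins. Open circles mark 0x or 2x groups with recurring values or a single value, which may be filled; 4x and 10x separate in every panel, while the 0x samples at Rbm20 spread from 0 to 74.5%.

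Neighbouring bins averaged into windows of 1 kb gave 48068 windows with at least 2 bins, and none was called by limma (smallest adjusted p = 0.343). At an unadjusted p under 0.05 and at least 10 points, 936 were higher in 10x and 674 lower. Leading this order without passing were, among those higher, windows in an intron of Myo1h, a myosin (4x at 61.9, 72.2, 66.7 and 66.7%, 10x at 87.8 to 100%), and next to Cxcl14, a chemokine (71.7% in 4x and 93.6% in 10x). Among those lower were windows in an intron of Pax7, a regulator of muscle stem cells (4x at 55.2, 61.1, 37.5 and 55.3%, 10x at 0 in 4 samples, 9.05% in sample 32 and 25% in sample 11), and at the promoter of Plekha7, a junction protein (87.8% in 4x and 52.7% in 10x).

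Promoters were taken as the mean of the bins within 1 kb of any TSS of a gene, and 19113 were tested. The only one called was Vmn2r16, higher in 10x (0.00523% of the promoters tested), at 76.7% ± 2.32 (SD, n = 4) for 4x, against 99.4% ± 1.31 (SD, n = 6) for 10x (difference 22.6 points, SE 1.19, limma adjusted p = 1.73e-04). It rests on the 1 bin described above and kept its call without sample 32 (adjusted p = 0.00164). Unadjusted, at p under 0.05, 385 promoters were higher in 10x (2.01%) and 486 lower (2.54%), and the median difference over all promoters was -0.04 points. Together these shares are no more than such a limit passes when nothing differs. The groups did not overlap in 177 promoters (0.926%), 78 higher and 99 lower in 10x.

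The promoters next in order, none of which passed, were carried by few bins. Higher in 10x were Lncbate6, a non-coding RNA, at 0, 27.5, 16.4 and 0% in 4x and 44.4 to 100% in 10x (1 bin, adjusted p = 0.238), Gm38842 (18.3 points, 2 bins), Gm50270 (10.8 points, 2 bins) and Krt14, a keratin of basal epithelium (32.04 points, 1 bin, adjusted p = 0.382). Scgb1c1 and C330022C24Rik share 1 bin (35.8 points), Cabp2, a calcium-binding protein, had 3 bins (24.6 points), and Mmrn2, an endothelial matrix protein, had 2 (25.7 points). Lower in 10x was Rap1gap, an inactivator of the small GTPase Rap1, with 16 bins over several TSSs. Its 4x samples were at 29.3, 24.4, 26.7 and 23.8% and its 10x samples at 10.4 to 18.6%, a difference of -11.59 points (SE 1.77, limma adjusted p = 0.238). Pard6b and Gm39990 share bins (-6.39 and -7.79 points), 1700017J07Rik had 3 bins (-30.14 points), Prr3 had 10 (-5.20 points) and Slc6a11, a GABA transporter, had 3 (-6.34 points). Ephb4, a receptor of venous identity, shares its 1 bin with Gm52791 (-8.05 points).

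**Figure D5:**
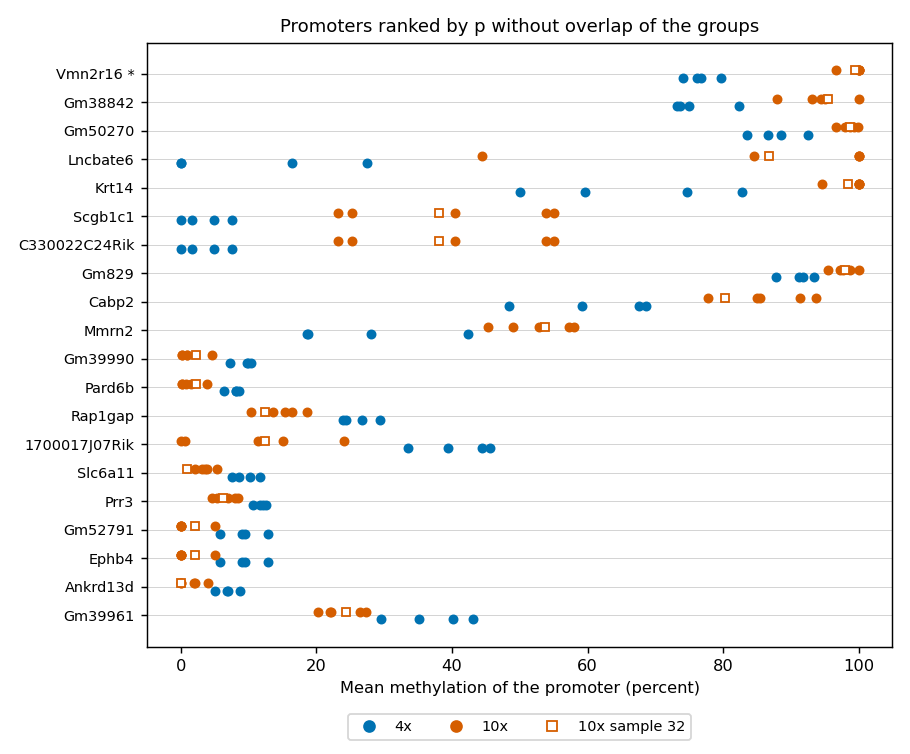
Mean methylation of the promoter (x axis, percent) per 4x (blue) and 10x (orange) sample for the 10 promoters higher and the 10 lower in 10x that lead the order of p among those without overlap; the open square is 10x sample 32. Only Vmn2r16 (star, 76.7% in 4x and 99.4% in 10x) passed the adjusted test.

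Promoters of genes with a role in HSCs, in methylation and in the response to 5FU were then read as lists. The 31 lists hold 628 measured promoters. None was called, 10 were higher (1.59%, against 2.01% of all promoters) and 12 lower (1.91%, against 2.54%) at an unadjusted p under 0.05, and their median difference was 0.03 points, against -0.04 points for all promoters. The lists thus held no larger share of unadjusted differences than the promoters at large.

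The HSC transcription factors were nearly unmethylated in both groups, as were promoters overall: the median over 23 measured promoters was 2.31% in 4x and 2.48% in 10x (all promoters 4.96 and 4.499%), and 1 of 23 was lower at an unadjusted p under 0.05. This was Lmo2, an essential factor of blood formation, at 15.9, 16.2, 15.9 and 11.2% in 4x and 8.96 to 13.9% in 10x (difference -3.95 points, limma adjusted p = 0.938), with overlap between the groups. Gata2, another such factor, was at 4.44% ± 4.49 (SD, n = 4) and 1.94% ± 0.931 (SD, n = 6). Among 16 promoters of HSC surface genes 1 was higher. Itga2b, the megakaryocyte integrin CD41, which also stands among the erythroid and megakaryocyte genes, was at 16.8, 27.4, 0 and 25% in 4x and 27.5 to 36.6% in 10x (13.6 points, adjusted p = 0.938), with the highest 4x and the lowest 10x sample nearly equal.

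Genes that mark other cells were checked the same way, and 0 of 6 B cell, 0 of 8 T and NK cell and 0 of 12 stroma and endothelial promoters passed the unadjusted limit. Of 11 myeloid promoters, Fcgr3, an Fc receptor, was higher (11.4 points, limma adjusted p = 0.938). The B cell promoters measured were largely methylated (median level 62.9% in 4x and 83.9% in 10x), with 3 higher and 3 lower in 10x and a median difference of 2.13 points, and the T and NK cell promoters were at 19.6 and 20.1%. In bulk samples a difference of a few points can come from a change in each cell or from another mixture of cells, and these cannot be told apart here.

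Of the writers and erasers of DNA methylation, 8 of 16 promoters were above and 8 below 0, none at an unadjusted p under 0.05 (median 0.08 points). Tet2, which oxidises methylcytosine, was at 2.59% ± 0.725 (SD, n = 4) for 4x, against 6.90% ± 4.502 (SD, n = 6) for 10x, and Uhrf1, which guides Dnmt1 to replicated DNA, at 2.29% ± 1.58 and 5.97% ± 4.03. None of the 12 promoters of PRC2 and its cofactors and none of the 22 of PRC1 and BCL6 partners passed the unadjusted limit. The Hox genes, which PRC2 silences in most tissues, showed 1 of 10 HoxB promoters lower (Hoxb6, 7.85 to 4.03%) and, of 19 HoxC and HoxD promoters, 1 lower (Hoxc8, 7.89 to 2.80%) and 1 higher (Hoxd8, 3.75 to 6.19%), all with an adjusted p of 0.938 in limma. The 11 HoxA promoters had none.

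Among 34 promoters of the p53 and DNA damage response 1 was lower and 1 higher. Trp73, a relative of p53, was at 34.1, 33.1, 44.7 and 36.2% in 4x and 25.9 to 30.9% in 10x over 14 bins, a difference of -8.97 points (SE 2.19, unadjusted p = 0.00250 and adjusted p = 0.724 in limma), without overlap of the groups. Xrcc1, a scaffold of single-strand break repair, was higher by 4.19 points. Of 20 promoters in fluorouracil metabolism and uracil repair, Dut, the dUTPase that keeps uracil out of DNA, was higher (1.65 to 5.28%). Of 12 genes raised in old HSCs, Sbspon was lower (-6.88 points) and Mt1, a metallothionein, higher by 2.84 points. The 16 cell cycle inhibitors, the 17 telomerase and shelterin genes and the 20 drivers of clonal hematopoiesis had no promoter past the unadjusted limit. Cdkn2a, the p16 and p19 locus, was at 6.07% ± 4.07 (SD, n = 4) and 2.78% ± 0.995 (SD, n = 6).

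None of the 23 measured promoters of genes that the study names passed the unadjusted limit (15 above 0 and 8 below, median 0.265 points). The study named the hematopoietic, cell cycle, Wnt and telomerase genes for changes against 0x, in a response common to all cycle numbers. It named Ezh2, Suz12, Klf4, Pou5f1 (Oct4), Runx1 and Bcl6 for enrichment of their targets, not for their own promoters. The comparison of 10x with 4x therefore does not test those statements. The largest difference was at Cebpe, a factor of granulocyte maturation, at 53.7, 65.4, 77.2 and 64.7% in 4x and 38.7 to 60.8% in 10x (-11.04 points, unadjusted p = 0.0610 and adjusted p = 0.938 in limma), with overlap of the groups. The signalling ligand genes Wnt3a (3.52 and 6.27%) and Wnt1 (6.16 and 8.54%) followed Cdkn2a and Tert in size. The telomerase subunit Tert was at 7.40% ± 3.96 (SD, n = 4) for 4x, against 10.2% ± 4.36 (SD, n = 6) for 10x, and its RNA component Terc at 1.76% ± 2.78 and 1.93% ± 1.83. The PRC2 subunits Ezh2 (2.32 and 2.21%) and Suz12 (2.54 and 2.22%) and the factors Klf4 (3.14 and 3.18%), Bcl6 (1.29 and 1.40%) and Runx1 (4.53 and 5.26%) differed by less than 1 point. The pluripotency gene Pou5f1 was at 43.6% ± 5.12 and 42.2% ± 3.39.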

How the data were processed

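DNA methylation was measured by RRBS in sorted HSCs. Per the labels and the methods, the authors used Trim Galore 0.4.3 for trimming, Bismark 0.23.1 for alignment (mm10) and the level of each CpG and methylKit 1.22.0 for differential loci, took the average per 100 bp bin and gave missing bins the level of their group. What was deposited is 1 percent methylation per bin and sample, without read numbers, so depth is unknown and no counting interval is given. Filled values pull a sample toward its group and make p-values too small.

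Samples were grouped by label, and nothing in the labels says which were processed together. Labels do not state that samples are separate animals, so p-values measure the spread between samples. Bins, windows of 1 kb (at least 2 bins) and promoters (within 1 kb of a RefSeq TSS, GRCm38.p6, the assembly of mm10) were tested with limma 3.58.1 (R 4.3.3) on the percent, 10x and 4x only, with Benjamini-Hochberg adjustment over all features; promoters had no minimum difference. The limma fit was tested on simulated data, where 84 of 100 changes of 20 points and 100 of 100 changes of 40 points were found. In that simulation 5 unchanged bins were called. Its values were normal, with no filled values and no excess at 0 or 100, and only bins of low spread were changed. It therefore does not test how the calls depend on these features. For sample means, the labels were permuted exactly (two-sided), adjusted within each set of bin classes; the sets by CpGs per bin were added after the data were seen. The promoter and the 1 kb distance class are the same bins. Named bins and promoters were those that passed without overlap of the groups, up to 10 in each direction by size, filled in order of unadjusted p where fewer passed; bins beyond these are named because each was called. Lists name up to 4 members by size of difference; further members are those past the unadjusted limit and genes that the study names. Windows were named from the same order, by genes with a known role. Members and lists were chosen with earlier results of these data known. Alternatives were the bin set, each sample left out, the label series (numbers up to 12, and above), the scale, the variance model, the minimum difference, and the promoter and window definitions.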

Additional observations from a re-analysis of the deposited data

Results flagged for a closer look

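Samples far from the others of their group were looked for by Dixon's criterion in 100 groups of values (the means over bins by class, the 28 called bins and the share of bins at 0 or 100), and 18 were marked, where chance gives about 5%. Among the means these were all in 4x: sample 20 was high in introns (76.8%), in bins 20 to 50 kb from a TSS (80.8%) and in bins with 2 to 3 CpGs (74.5%), and sample 19 was high in 3′ UTR bins (71.6%). Each was below the mean of 10x.

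Among the called bins, 12 marks were in 10x, where most other values are at or near 0 or 100: sample 31 at Nucb2 (87.8%) and near Rxrg (98.5%), sample 11 near 1700042G15Rik (95.0%), near Gm40565 (7.84%) and at Rbx1 (2.78%), sample 34 at Ildr1 (80.7%), near Gm24626 (92.8%), at Clstn1 (96.97%) and at Vmn2r16 (96.7%), sample 12 near Mdm1 (87.6%) and at Ppard (10.7%), and sample 33 at Slc38a1 (98.8%). In 4x, sample 06 was apart near Slamf6 (96.8%, the others at 100%) and sample 05 at Rbx1 (41.7%). The groups do not overlap in any called bin, so no marked sample there could reach the range of the other group. Among the means, 4x sample 19 lay within the 10x range in 3′ UTR bins (71.3 to 72.2%). The share of values at 0 or 100 in a group moves with these marks, and its part in them was not tested.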

How the results depend on the processing

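The mean difference of 0.553 points stayed positive under every alternative, at 0.485 to 0.616 points with 1 sample left out, 0.903 in all deposited bins that vary and 0.340 in bins usable in all 4 groups. It missed the threshold in bins with at most 1 value of 0 or 100 per group (0.349), within label series 1 (0.606, smallest possible exact permutation p = 0.333) and within series 2 (0.507, smallest possible 0.0667); with series as a block it was 0.550 (exact permutation p = 0.0111). With 1 sample left out, 0 to 5 genomic classes passed, 2 levels in 0x, 3 to 4 distances, 3 CpG sets, 5 to 97 bins, 0 to 5 windows and 1 to 6 promoters. Besides the 5 bins without 10x replicate 32, 11 were called without 10x replicate 31, 12 without 33, 49 without 4x replicate 05, 97 without 06, 69 without 19 and 90 without 20. Of the genomic classes, 0 passed without 10x replicate 32, 3 without 34, and 2 without 4x replicate 05, 06 or 19; promoters numbered 2 without 10x replicate 11, 6 without 4x replicate 06 and 3 without 20, and windows 1 without 4x replicate 05 or 19 and 5 without 06.

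In bins with at most 1 value of 0 or 100 per group, 0 classes, 0 levels, 0 distances and 0 CpG sets passed, and 4 bins, 1 window and 0 promoters were called. In bins usable in all 4 groups, 0 classes, 1 level, 0 distances and 0 CpG sets passed, with 6 bins, 1 window and 0 promoters. All deposited bins that vary, filled values included, gave 67978 bins, 13667 windows and 3198 promoters. Repeated values as missing gave 2 windows and 2 promoters, and the spread shared by 4 groups 81 bins (7 of the 28 among them), 2 windows and 7 promoters (without Vmn2r16). Within label series 1 there were 0 bins and 0 promoters, within series 2 there were 168 bins (again 7 of the 28) and 3 promoters (without Vmn2r16), and the label series as a block gave 19 bins. Bins numbered 0 on the log2 ratio, 0 with a variance trend and 0 with unequal variances, where promoters were 0 too. Promoters within 0.5 kb numbered 0 and within 2 kb 2. The cause of these changes was not tested, except that fewer samples or bins leave less to test.

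The promoter difference of -0.07 points, the same up to 1 kb from a TSS, ran from -0.11 to 0.0202 with 1 sample left out and changed sign in all deposited bins (0.136), bins usable in all 4 groups (0.0187), with the X chromosome (0.0415), without 4x replicate 06 and within label series 2 (0.0774). That of bins with 7 or more CpGs (-0.06) ran from -0.093 to 0.00250 and changed sign in all deposited bins (0.0111), bins with few values of 0 or 100 (0.0764), with the X chromosome (0.0379), without 4x replicate 06 and within label series 2 (0.0251), and that of the 3′ UTR in bins usable in all 4 groups (-0.40). No paired analysis was possible because the groups share no replicate number. All 28 called bins kept their sign in every alternative that held them. The groups do not overlap in these bins, so the sign was fixed in advance and adds no support. Depth, which is unknown, limits all values.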

Other observations

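On the X chromosome, which the comparison leaves out, 6771 bins met the same conditions on both groups. Their mean was 67.6% ± 2.47 (SD, n = 4) in 4x, with samples 05, 06, 19 and 20 at 64.0, 69.2, 68.4 and 69.0%, and 69.5% ± 0.476 (SD, n = 6) for 10x, with samples from 68.9 to 70.3%, a difference of 1.86 points (two-sided exact permutation p = 0.0143). The groups overlapped, and the difference rested on 4x sample 05: without it, a check added after the data were seen, it was 0.641 points (exact permutation p = 0.0833), while leaving out any other single sample gave 1.71 to 2.39 points.

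The share of bins over 80% methylated was 48.4% ± 0.454 (SD, n = 4) for 4x, against 49.6% ± 0.814 (SD, n = 6) for 10x (exact permutation p = 0.0238), while the share under 20% was 35.3% ± 0.907 and 35.2% ± 0.224 (exact permutation p = 0.910). The share between was 16.3% ± 1.19 and 15.2% ± 0.795 (exact permutation p = 0.133). These 3 tests were not adjusted for one another. Sample 32 had the highest share over 80% (51.05%) and the lowest share between (13.69%). The other 10x samples were at 48.7 to 49.8% and 15.2 to 15.9%. In the share over 80% the groups overlapped, with 10x sample 12 at 48.67% and 4x sample 20 at 48.78%. The shares were not tested without sample 32. The median SD of a bin between samples was 6.15 points in 4x and 5.77 points in 10x, and the SD was larger in 10x in 47.0% of bins; filled values lower such an SD.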
